A study of Mus musculus with 7 samples.

Results

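Aldh1a3-positive cells of the PyMT mammary tumors were chosen by their measured Aldh1a3 UMIs (unique molecular identifiers, each counted as 1 transcript): they were cells with at least 3000 UMIs, at least 500 detected genes and under 20% of UMIs from mitochondrial genes that also held at least 2 Aldh1a3 UMIs and at least 2 Aldh1a3 UMIs per 10000. By these limits 583 of 3643 PyMT cells were Aldh1a3-positive, out of 11474 cells that passed the cell filters across the 7 libraries of the study. PyMT A held 363 of them and PyMT B held 220. They were compared with the 1217 cells of PyMT A and the 1271 cells of PyMT B that had no Aldh1a3 UMI at all, called Aldh1a3-negative here, and 269 and 303 cells lay between both classes and entered neither.

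The study profiled sorted CD24+ Lin- cells (CD31-, CD45- and Ter119-negative) from PyMT, Neu, BRCA1-null and 4T1 mouse mammary tumors by droplet single-cell RNA sequencing to describe the cell states within each tumor model. Both PyMT libraries came from tumors that FF99WT cells formed after transplantation into adult FVB/NJ mice, and FF99WT is a line from an autochthonous MMTV-PyMT tumor whose FIP200 alleles were floxed but intact, as no Cre recombinase was present. The polyoma middle T oncogene is driven there by the mammary tumor virus promoter, so the tumor cells share 1 line of origin. Tumors were taken untreated at about 1000 mm3, and the replicate letter also marks the sequencing batch. Whether the 2 libraries came from tumors of separate mice is not given by the labels, so p-values apply to these libraries only. With 1 residual degree of freedom against a median of 21.1 prior degrees, edgeR's p-values and standard errors rest mainly on spread pooled across genes. They do not measure how far the 2 libraries differ for a given gene.

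ALDH1A3 is an aldehyde dehydrogenase of the cytosol that oxidizes retinaldehyde to retinoic acid, the ligand of the nuclear retinoic acid receptors. In the normal mammary gland its transcript marks luminal progenitors, the cells of the inner epithelial layer that give rise to the milk-secreting alveolar lineage. Aldehyde dehydrogenase activity is also widely used to sort breast cancer cells for tumor propagation assays, and ALDH1A3 is one of the isoforms that contribute to that signal. The gene lies on the minus strand of chromosome 7 at chr7:66390890-66427517 (GRCm38, the mm10 build of the files).

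Aldh1a3 chose the cells, so its own values are given as a description only. Members made up 19.6% of PyMT A cells (exact 95% interval 17.8 to 21.5, n = 1849) and 12.3% of PyMT B cells (10.8 to 13.9, n = 1794). Under the same limits, 1 of 2075 Neu A cells, 2 of 1948 Neu B cells, 8 of 1685 4T1 cells, 5 of 222 BRCA1-null A cells and 73 of 1901 BRCA1-null B cells would have been members. These intervals cover counting error only. Because PyMT B was sequenced more deeply (median 19622.5 UMIs per cell against 9467 in PyMT A), every cell was also thinned to 3000 UMIs, after which the shares were 10.5% and 5.69%, so PyMT A kept the higher share at equal depth.

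At least 1 Aldh1a3 UMI was found in 34.2% of PyMT A cells and 29.2% of PyMT B cells, against 1.40% of Neu A cells and 2.21% of Neu B cells, whose median depths were 9478 and 15949.5 UMIs. Free RNA comes from a library's own cells, and Aldh1a3 stood at 187 and 97.1 CPM in the PyMT libraries against 1.48 and 1.64 in the Neu libraries, so the Neu shares do not measure the background in PyMT, and how many PyMT cells with few Aldh1a3 UMIs had them from free RNA was not tested. Members held 90.2% of all Aldh1a3 UMIs of PyMT A and 83.6% of those of PyMT B. The median member carried 5 Aldh1a3 UMIs in PyMT A and 11 in PyMT B, or 5.13 and 4.74 per 10000, and the highest members reached 42.4 and 27.9 per 10000. The limit cut through a continuous range: the lowest members stood at 2.006 and 2.009 per 10000, and the highest cells outside with at least 2 UMIs stood at 1.998 and 1.963.

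**Figure D1:**
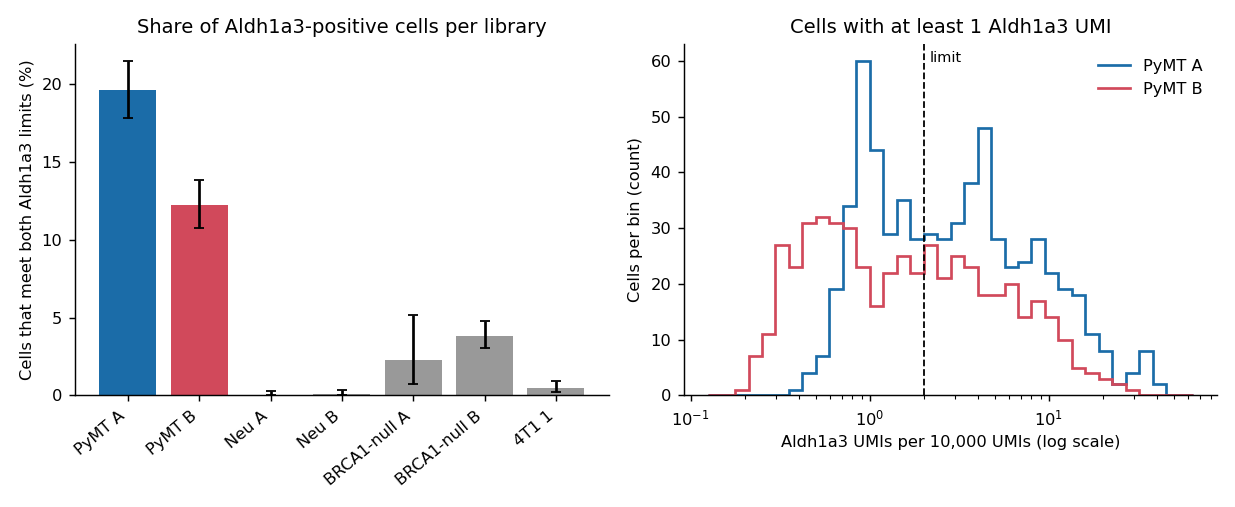
Left, bars give the percent of cells in each library that met both Aldh1a3 limits, with exact 95% intervals that cover counting error. Right, the number of cells per bin against Aldh1a3 UMIs per 10000 UMIs on a log scale for PyMT cells with at least 1 Aldh1a3 UMI, with the limit of 2 per 10000 as a dashed line. PyMT A (19.6%) and PyMT B (12.3%) stand above every other library, and cells spread over both sides of the limit.

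The members were epithelial cells of luminal type, as were the cells without Aldh1a3. Krt8 and Krt18, the keratins of luminal cells, had a UMI in 100% of matched members of both libraries. Their levels were 6246 CPM of Krt18 (UMIs scaled to a common library total) in members against 6258 in negative cells of PyMT A, and 6779 against 6605 in PyMT B. Of the basal markers, Krt5, Acta2 and Trp63 fell under the filter on low counts, with at most 9 UMIs per sum except 35 of Krt5 in the negative cells of PyMT B, and 3 of the 12 genes of the basal and myoepithelial list were testable. The 3 were Krt17, described below, Krt14, a basal keratin, with 4.12 CPM in members against 3.43 in PyMT A and 58.6 against 42.0 in PyMT B (adjusted p = 0.21, edgeR), and the intermediate filament gene Vim, with 65 UMIs against 87 and 217 against 101 (adjusted p = 0.45). Krt14 was found in 24.7% of the matched members of PyMT B and in 24.2% of the negative cells, so some cells of both classes held a basal keratin. Leukocyte markers summed to 1.29 CPM in members against 2.32 in negative cells of PyMT A and to 7.96 against 4.18 in PyMT B, with 5 or 6 of 10 markers at 0 in each sum. Fibroblast markers summed to between 0.774 and 11.4 CPM, endothelial markers to between 1.29 and 2.19 and pericyte markers to between 8.36 and 10.1, and all 4 erythroid markers were at 0 in both sums of members. These low levels were present in both classes. Their part in the differences below was not tested, apart from 1 fit without cells that held UMIs of Ptprc, Pecam1, Col1a1 or Col3a1, given at the end.

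Members did not form a compact group. Among the 20 nearest cells of a member, placed by 30 principal components of the 2000 most variable genes without Aldh1a3 and at 3000 UMIs per cell, 30.6% were members in PyMT A and 19.5% in PyMT B, against 19.6% and 12.3% of all cells. For negative cells the share of members among neighbors was 18.6% and 11.6%. Members therefore had more members around them than their overall share, but 11.3% of the members of PyMT A and 2.27% of those of PyMT B had members as at least 50% of their neighbors.

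To ask what else differed, UMIs were summed over the members of each library and over as many negative cells of the same library and the same depth, which paired 362 of 363 members in PyMT A and 219 of 220 in PyMT B. Matched members and negative cells had equal median depths of 10449 and 10446.5 UMIs in PyMT A and of 21027 and 21024 in PyMT B. Their detected genes (2484 against 2421.5, and 3647 against 3571) and their mitochondrial percentages (5.04 against 4.85, and 4.64 against 4.65) were close. The 4 sums were compared by edgeR's quasi-likelihood test with the library as a block and Benjamini-Hochberg adjustment over all 9574 genes tested, Aldh1a3 left out.

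In that comparison 54 genes were higher in Aldh1a3-positive cells (0.564% of the genes tested) and 95 were lower (0.992%), at an adjusted p under 0.05, together 1.56% of the genes tested. Of these 149 genes, 145 had the same direction in both libraries, but a test with the library as a block favors such genes. Of all 3950 genes with over 20 CPM in the negative cells of both libraries, 58.2% had the same sign in both. The Pearson correlation of their log2 folds was 0.34. The differences were mostly modest, with a median absolute log2 fold change of 0.66 over the called genes and 36 genes at 1 or more. For 35 of the 149 genes, however, 1 cell supplied at least 25% of the UMIs of the higher class in a library. When each gene's highest cell was left out of every sum, 33 of the 54 higher and 69 of the 95 lower genes were still called. When the 5 highest cells were left out, 41 and 61 were, and 30 higher and 54 lower genes held in both. A call lost there need not mean a smaller fold. Without its highest cell, Adamts1 had an adjusted p of 2.3e-06 against 1.1e-08 (edgeR), at a log2 fold change of 1.34 against 1.30. DESeq2's Wald test on the same sums called 4 higher genes (Adamts1, Rbp7, Tagln2 and Areg) and 16 lower genes. Of the lower genes named below it called Saa1, Saa2, Spp1, Lcn2, 1500015O10Rik, Cd74, H2-Ab1, Aqp5, Trf, Fth1, Lrg1, Rsad2, Wfdc2, Mt2 and Scgb2b27. The other genes named below did not pass DESeq2, also where a small edgeR p-value is given. Without the library term the edgeR test called 0 genes, with 93 at an unadjusted p under 0.05 against 966 in the blocked fit.

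**Figure D2:**
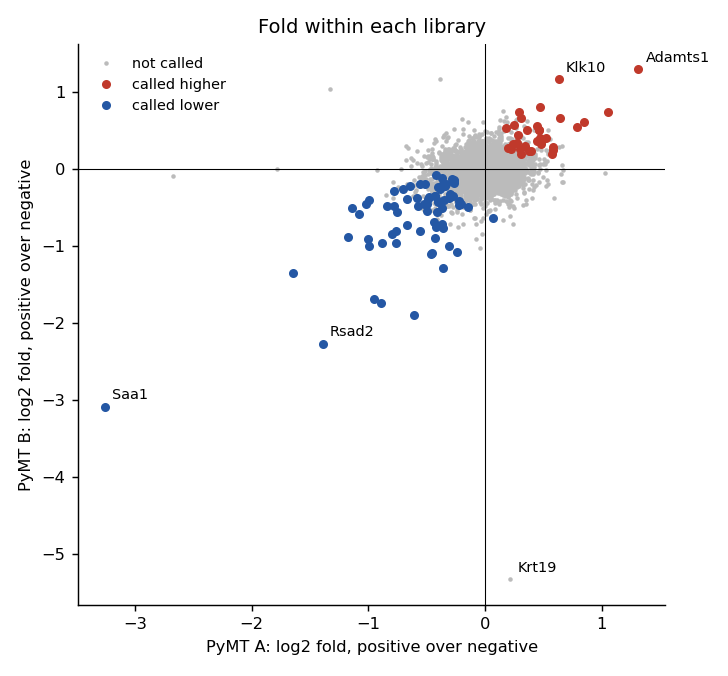
Each point is a gene with over 20 CPM in the negative cells of both libraries (n = 3950), with its log2 fold of members over depth-matched negative cells in PyMT A on the x axis and in PyMT B on the y axis. Genes called higher (red) lie in the upper right and genes called lower (blue) mostly in the lower left, and Krt19, not called, lies at the bottom.

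Adamts1, which encodes a secreted metalloprotease that cleaves proteoglycans, had the smallest p among the genes higher in members. It measured 75.5 CPM in members against 30.4 in negative cells of PyMT A and 226 against 91.8 in PyMT B. It was detected in 28.2% of members against 10.2% of negative cells of PyMT A, and in 62.6% against 35.2% in PyMT B. Members were thus higher in each library, by about the same factor, although the libraries differed in level (log2 fold change 1.30 ± 0.10 SE, adjusted p = 1.1e-08, n = 2 libraries, edgeR's quasi-likelihood test). The call was kept in all 13 edgeR alternatives that kept the library term and by DESeq2 (adjusted p = 1.4e-07). The gene lies on chromosome 16 at chr16:85793827-85803113, minus strand.

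A pair of kallikrein-related peptidases, secreted serine proteases encoded in 1 cluster on chromosome 7, was also higher. Klk10 (chr7:43781035-43785410) measured 1634 CPM in members against 1054 in negative cells of PyMT A and 1687 against 751 in PyMT B, a log2 fold change of 0.90 ± 0.08 (adjusted p = 1e-07, edgeR). Its log2 folds within PyMT A and PyMT B were 0.63 and 1.17, further apart than that standard error. Klk6 (chr7:43824499-43832030) measured 107 against 68.1 CPM and 155 against 97.5 CPM, with a log2 fold change of 0.66 ± 0.09 (adjusted p = 0.0001). For both genes the 4 sums separated members from negative cells in each library. F2rl1, which encodes the protease-activated receptor PAR2, rose as well, with 58.0 against 33.5 CPM and 52.3 against 35.8 (adjusted p = 0.003). Neither the kallikreins nor F2rl1 passed DESeq2, where the adjusted p of Klk10 was 0.21.

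Rbp7, which encodes a cellular retinol-binding protein, rose from 149 to 269 CPM in PyMT A and from 305 to 468 in PyMT B, and was detected in 55.0% of members against 35.4% of negative cells in the first and in 78.5% against 62.6% in the second. Its log2 fold change was 0.72 ± 0.07 (adjusted p = 1.8e-06, edgeR), and DESeq2 called it too (adjusted p = 0.00071). Rbp7 was not on the list of retinoic acid genes. Of the 25 genes on that list, which holds the enzymes, binding proteins and receptors of retinoic acid, 12 were testable and 0 were called by edgeR or DESeq2, with 3 lower and 0 higher at an unadjusted p under 0.05. Their median log2 fold change was -0.14, against -0.0018 over all genes tested.

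The 3 genes at an unadjusted p under 0.05 were Tgm2, Fabp5 and Rxra, and none passed the adjusted test. Rxra, a partner of the retinoic acid receptors, measured 2.83 CPM in members against 5.54 in negative cells of PyMT A and 4.13 against 7.09 in PyMT B (log2 fold change -0.85, adjusted p = 0.33, edgeR). Fabp5, a fatty acid-binding protein that also binds retinoic acid, measured 216 against 221 and 223 against 291 (adjusted p = 0.29). Crabp2, which carries retinoic acid to its receptors, measured 163 CPM in members against 147 in negative cells of PyMT A and 206 against 201 in PyMT B. Tgm2, a classical retinoic acid target, measured 21.6 against 28.3 CPM and 20.1 against 29.0 (log2 fold change -0.46, adjusted p = 0.20). The other retinaldehyde dehydrogenases Aldh1a1, Aldh1a2 and Aldh1a7 had at most 1 UMI in any sum, as did the receptor gene Rarb and the retinoic acid hydroxylase gene Cyp26a1, so a difference in them was not detectable at this depth. Of 16 other aldehyde dehydrogenase genes, 10 were testable and 0 were called by edgeR, with 1 at an unadjusted p under 0.05. That gene was Aldh2, the mitochondrial enzyme of acetaldehyde oxidation, with 771 UMIs in members against 881 in negative cells of PyMT A and 1017 against 1177 in PyMT B (log2 fold change -0.22, adjusted p = 0.20).

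Several of the higher genes encode signaling ligands and enzymes of epithelial cells. Areg, which encodes the EGF receptor ligand amphiregulin, measured 241 CPM in members against 174 in PyMT A and 416 against 238 in PyMT B. Areg stood on the hormone-sensing list, where 5 of 10 genes were testable and it was the 1 gene called higher (log2 fold change 0.65 ± 0.08, adjusted p = 2.6e-05, edgeR). Ptgs2, the inducible cyclooxygenase, measured 71.6 against 34.6 CPM and 36.0 against 21.5, with an adjusted p of 0.00017. Sdc1, the heparan sulfate proteoglycan syndecan-1, and Tsc22d1, a leucine zipper regulator, rose by 0.48 and 0.47 on the log2 scale. Proser2 rose by 0.48 but lost its call without its highest cell (adjusted p = 0.10), at a log2 fold change of 0.46.

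Tagln2, S100a6 and Pdlim7 were also among the higher genes with the largest folds. Tagln2, an actin-bundling protein of the calponin family, measured 675 CPM in members against 496 in PyMT A and 718 against 487 in PyMT B (log2 fold change 0.50 ± 0.06, adjusted p = 2.4e-05, edgeR). S100a6, the calcium-binding protein calcyclin, measured 2549 against 2081 CPM and 3149.9 against 1874 (0.52 ± 0.07, adjusted p = 3.1e-05). Its log2 folds within PyMT A and PyMT B were 0.29 and 0.75. Pdlim7, a scaffold of actin fibers, measured 142 against 103 CPM and 110.3 against 77.4. All 3 were higher in members of each library. Chosen after their values were seen, Tmsb10, Anxa6, Tpm1, Actn1 and Flna, which encode an actin monomer-binding thymosin, an annexin, tropomyosin, alpha-actinin and filamin A, were also called, with log2 fold changes of 0.28 to 0.40. Of these 5, Tpm1, Actn1 and Flna lost the call when the highest cell of each sum was left out (adjusted p of 0.060, 0.066 and 0.072). Their log2 fold changes were 0.31, 0.30 and 0.40 there, against 0.31, 0.31 and 0.40 in the main fit.

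**Figure D3:**
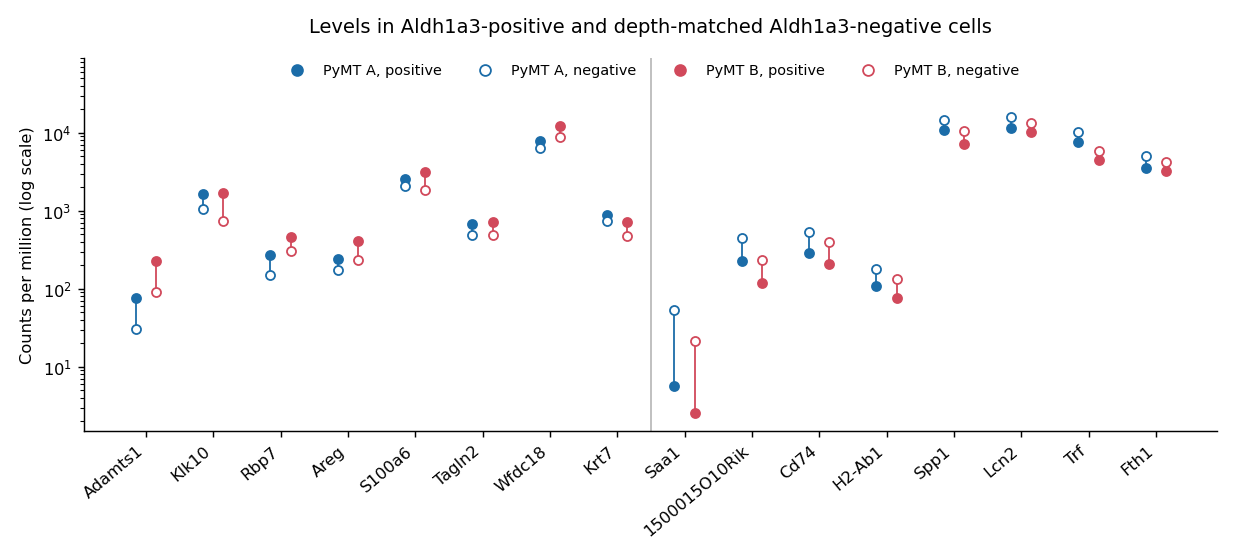
CPM on a log scale of 16 genes, 8 higher and 8 lower in members, in members (filled) and depth-matched negative cells (open) of PyMT A (blue) and PyMT B (red). In each of the 16 genes the filled point lies on the same side of the open point in both libraries. The 16 were chosen from the called genes, and the blocked test favors genes whose libraries agree, so the choice largely set this.

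The luminal progenitor list did not move as 1 block. Of its 15 genes, 14 were testable, 1 was called higher and 2 lower, and the median log2 fold change was 0.029 against -0.0018 over all genes. Anxa1, an annexin, measured 2611 CPM in members against 2241 in negative cells of PyMT A and 1768 against 1472 in PyMT B (log2 fold change 0.24 ± 0.04, adjusted p = 0.0034, edgeR). Ehf, an Ets transcription factor of epithelia, went the other way with 46.1 against 69.2 CPM and 65.5 against 84.5 (-0.46 ± 0.10, adjusted p = 0.018). Spp1, the secreted phosphoprotein osteopontin, was the other gene called lower and is described below with the involution genes.

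Other progenitor genes did not pass the test. Sox10 and Sox9, transcription factors of mammary progenitors, measured 39.7 against 25.6 CPM and 131 against 103 CPM in PyMT A, and 44.4 against 36.2 and 143 against 122 in PyMT B. Their adjusted p-values were 0.13 and 0.14 (edgeR). Kit, the stem cell factor receptor, stood at 8.50 against 6.07 CPM and 11.2 against 9.06, Elf5, the Ets factor of the alveolar lineage, at 36.3 against 41.7 and 82.2 against 90.2, and Cd14, the lipopolysaccharide coreceptor, at 341 against 426 and 325 against 285, so Cd14 lay in opposite directions in both libraries. Krt19, a luminal keratin, stood at 359 against 309 CPM in PyMT A but at 1.97 against 79.0 in PyMT B, and was not called (adjusted p = 0.47).

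Cell surface genes used to sort stem or tumor propagating cells did not separate members either. Of the 12 on the list, 8 were testable and 0 were called by edgeR or DESeq2, with 0 at an unadjusted p under 0.05 in the edgeR test. Cd24a, whose protein was the positive marker of the sort, measured 604 CPM in members against 590.4 in negative cells of PyMT A and 660.0 against 599.5 in PyMT B. Cd44 measured 161 against 175 and 103 against 89.0, Itga6 78.3 against 73.4 and 73.7 against 71.3, and Itgb1 75.8 against 77.9 and 116 against 117. Prom1 had 3 UMIs in the negative cells of PyMT A and 0 in the other 3 sums. Among keratins and junction genes, Krt7 was the 1 gene of 12 called, with 886 against 744 CPM and 712 against 478 (log2 fold change 0.41 ± 0.07, adjusted p = 0.00097, edgeR).

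The involuting mammary gland makes acute-phase and other secreted proteins in response to STAT3. Of the 17 testable genes on the involution and STAT3 list, 6 were called lower and 0 higher, and the median log2 fold change was -0.23. Spp1 measured 11017 CPM in members against 14636 in negative cells of PyMT A and 7137 against 10528 in PyMT B (-0.49 ± 0.03, adjusted p = 1.1e-08, edgeR). Lcn2, the iron siderophore-binding lipocalin, measured 11554 against 16075 CPM and 10293 against 13190.0 (-0.42 ± 0.03, adjusted p = 1.5e-08). Both were among the most abundant transcripts of these cells and had a UMI in over 99% of members, so the members had less of a transcript that nearly every cell made.

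Csf3, which encodes the neutrophil growth factor G-CSF, measured 1706 CPM in members against 2342 in PyMT A and 206 against 439.8 in PyMT B (log2 fold change -0.75 ± 0.09, adjusted p = 8.9e-06, edgeR). The log2 folds of Csf3 within PyMT A and PyMT B were -0.46 and -1.09. Igfbp5, an insulin-like growth factor binding protein of involution, measured 879 against 1186 CPM and 1211 against 1536. Both were lower in members of each library. Not every gene of the list followed: Ltf, the milk iron-binding protein lactoferrin, stood at 5156 against 6754 CPM in PyMT A and 3866 against 3334 in PyMT B, in opposite directions, and Cebpd and Cd14 did the same.

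Saa1 and Saa2, neighboring genes for serum amyloid A on chromosome 7 (chr7:46740497-46742980 and chr7:46751790-46754313), had the largest folds among the genes called lower, but in few cells. Saa1 measured 5.67 CPM in members against 54.1 in negative cells of PyMT A and 2.56 against 21.7 in PyMT B, and had a UMI in 3.31% of members against 6.63% of negative cells in the first and in 2.28% against 7.76% in the second. Saa2 measured 2.06 against 17.4 CPM and 0.787 against 18.7, but 1 negative cell of PyMT B held 92.6% of the Saa2 UMIs of its sum. The call of Saa1 (-3.18 ± 0.21, adjusted p = 8.1e-09, edgeR) held without the 5 highest cells of each sum (-3.54, adjusted p = 0.00022), whereas Saa2 was no longer testable there. The transcripts of both genes are nearly identical, so UMIs may be split between them in an uncertain way.

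Other genes were lower as well. 1500015O10Rik, the Ecrg4 gene for the secreted peptide precursor augurin, measured 226 CPM in members against 450.2 in PyMT A and 119 against 236 in PyMT B, the same log2 fold of -0.99 in each library (adjusted p = 1.1e-08, edgeR). Aqp5, a water channel, measured 147 against 215 CPM and 253 against 441, Pigr, the receptor that carries immunoglobulins across the epithelium, was detected in 13.0% against 23.5% of cells and in 48.9% against 59.8%, and Ramp1, a calcitonin receptor partner, measured 26.5 against 58.4 and 58.6 against 82.9. All were lower in members of both libraries. Chosen after their values were seen, Trf (transferrin) measured 7749.8 against 10212 CPM and 4436 against 5927, Fth1 (ferritin heavy chain) 3578 against 5022 and 3266 against 4269, and Lrg1, an acute-phase glycoprotein, 153 against 273 and 148 against 207. DESeq2 called 1500015O10Rik, Aqp5, Trf, Fth1 and Lrg1 in the same direction, but not Pigr or Ramp1 (adjusted p of 0.64 and 0.61).

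Genes of antigen presentation were lower in members. Of the 6 testable MHC class II genes, 4 were called lower and 0 higher, with a list median of -0.74. Cd74, the invariant chain that accompanies class II molecules, measured 291 CPM in members against 536 in negative cells of PyMT A and 207 against 402 in PyMT B (-0.92 ± 0.07, adjusted p = 1.1e-08, edgeR). H2-Ab1 measured 107 against 182 CPM and 77.3 against 135, and H2-Aa 27.8 against 47.3 and 17.1 against 33.1, both called (adjusted p of 5.2e-06 and 0.0011). H2-DMa, which loads peptides, was called at an adjusted p of 0.033 and not without its highest cell (adjusted p = 0.10). Its log2 fold change was -0.65 there against -0.70 in the main fit. Cd74 was detected in 39.0% of members against 48.3% of negative cells of PyMT A, and in 49.3% against 64.8% in PyMT B, so members still held many Cd74-expressing cells. Leukocyte markers, which class II genes could accompany, were at the low sums given above. They were lower in members of PyMT A (1.29 against 2.32 CPM) and higher in members of PyMT B (7.96 against 4.18). Their part in the result was not tested.

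The class I genes B2m, H2-K1, H2-D1 and H2-T23, chosen after their values were seen, differed by less but in the same direction. B2m, the light chain of class I molecules, measured 2641 CPM in members against 3337 in PyMT A and 3786 against 4337 in PyMT B (-0.27 ± 0.04, adjusted p = 0.00067, edgeR). The log2 fold changes of H2-K1, H2-D1 and H2-T23 were -0.23, -0.21 and -0.38. Class I genes are paralogs, and UMIs could be split between them.

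Interferon response genes were called lower in 4 of 12 testable members of the list (Ifit1, Ifit3, Ifitm3 and Gbp2) and higher in 0, with a median of -0.33. Ifitm3, a membrane protein that restricts virus entry, was the most abundant of them with 752 CPM in members against 963 in PyMT A and 1312 against 1493 in PyMT B (-0.27 ± 0.05, adjusted p = 0.0077, edgeR), and it alone of the 4 kept its call without the 5 highest cells. Ifit1 measured 6.19 against 15.6 CPM and 14.4 against 28.6, but 1 negative cell held 45.8% of its UMIs in PyMT A, and its adjusted p without the 5 highest cells was 0.57. Rsad2, the antiviral enzyme viperin, measured 12.9 against 33.8 CPM and 23.4 against 112, a log2 fold change of -1.99 that came to -0.04 without the 5 highest cells (adjusted p = 0.98). Rsad2 and Ifit1 thus drew on a few negative cells, whereas Ifitm3 did not.

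The RefSeq promoters (GRCm38.p6, 250 bases before to 50 after each start) were searched on both strands for GAAA, any 2 bases and GAAA again, the core of the interferon-stimulated response element. It occurred in 10 of the 69 lower genes with a promoter in the table (14.5%), in 1 of the 45 higher genes (2.22%) and in 281 of 7547 genes tested (3.72%), against 3.99% of all 27025 genes with a promoter. The 10 were B2m, Fbln5, Gbp2, H2-T23, Ifit1, Ifit3, Ifit3b, Ifitm3, Rsad2 and Spp1. Of these, only B2m, H2-T23, Ifitm3 and Spp1 kept their calls without the 5 highest cells. Rsad2, Ifit1, Fbln5 and Gbp2 did not (adjusted p of 0.98, 0.57, 0.11 and 0.052, edgeR), and Ifit3 and Ifit3b were no longer testable. The 14.5% therefore includes calls that rested on few cells. On the interferon response list 6 of the 10 tested genes with a promoter held it (60%), among them Bst2 and Isg15, which were not called. Of the 10 lower genes, 4 are on that list, and no class II gene was among them, nor H2-K1 or H2-D1. Not all of the 95 lower genes could be searched, however. The class II gene H2-Ab1 had no promoter in the table, so this absence is no result about class II promoters. A match is a description of the letters and not a binding site. The 150 bases before the RefSeq start are shown for a class I gene (B2m) and an interferon response gene (Ifit1), 5′ to 3′ on the plus strand, which is that of both genes, with each match in capitals, at chr2:122147537-122147686 and chr19:34640739-34640888.
B2m: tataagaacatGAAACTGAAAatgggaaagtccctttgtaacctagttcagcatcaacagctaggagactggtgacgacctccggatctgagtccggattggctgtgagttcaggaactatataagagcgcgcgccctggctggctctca
Ifit1: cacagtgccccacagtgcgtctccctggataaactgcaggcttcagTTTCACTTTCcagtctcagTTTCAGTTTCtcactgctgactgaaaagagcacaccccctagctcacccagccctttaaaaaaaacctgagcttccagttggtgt
The match began 139 bases before the RefSeq start of B2m, and Ifit1 held 2 matches, at 104 and 85 bases. GENCODE places the starts of H2-T23 and Gbp2 upstream of the RefSeq starts, so that the RefSeq window of these genes covers transcribed sequence, and their sequences are not shown. It also places the start of Ifit1 at chr19:34640871, within the window shown. The last bases of that window are thus transcribed sequence by GENCODE, and both matches lie before them.

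Other lists showed few called genes. The alveolar and milk list had 18 testable genes, of which 1 was called higher and 2 lower. Wfdc18, a whey acidic protein family member, was the higher gene with 7807 CPM in members against 6409 in PyMT A and 12244 against 8971 in PyMT B (log2 fold change 0.37 ± 0.04, adjusted p = 8.7e-07, edgeR). Csn3, kappa-casein, was lower with 15564 against 20056 CPM and 17482 against 18853 (-0.24 ± 0.04, adjusted p = 0.00089), so these whey and casein genes lay in opposite directions. Csn1s2a, an alpha-casein, was called lower on PyMT B alone, since it stood at 33.5 against 31.9 CPM in PyMT A. Immediate early genes were called lower in 4 of 18 (Cyr61, Egr1, Nr4a1 and Btg2) with a median of -0.23, and of these Cyr61 alone kept its call without the 5 highest cells. Endoplasmic reticulum stress genes were lower in 2 of 10 (Hspa5 and Xbp1) and hypoxia genes in 2 of 10 (Ero1l and Bnip3). Xbp1 lost its call without its highest cell (adjusted p = 0.060, edgeR), at a log2 fold change of -0.32 against -0.31. Bnip3 lost it without the 5 highest cells (adjusted p = 0.10), at -0.69 against -0.84. Scd1, a fatty acid desaturase, was the 1 of 13 lipid synthesis genes called, with 97.7 against 168 CPM and 23.4 against 28.6. No gene was called by edgeR among 13 glycolysis, 19 oxidative phosphorylation, 5 Notch or 5 squamous genes, where 3, 1, 0 and 1 genes had an unadjusted p under 0.05, and DESeq2 called none of them either.

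**Figure D4:**
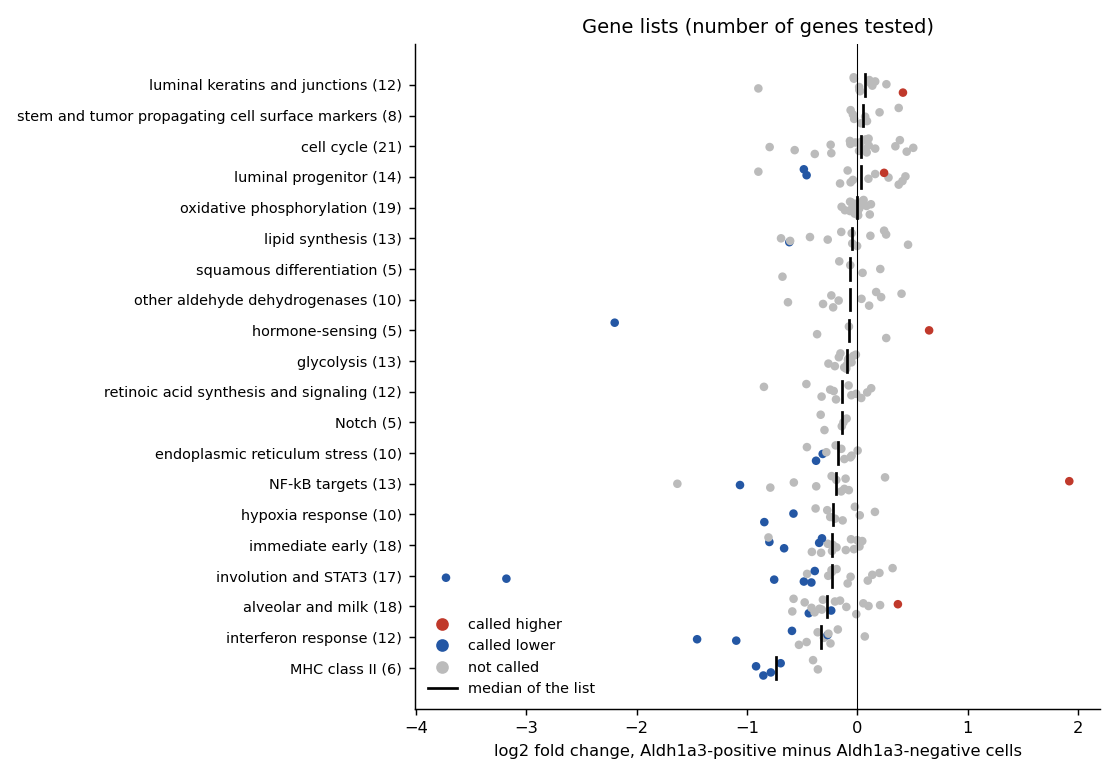
Log2 fold change of each testable gene, members minus depth-matched negative cells, for the 20 lists with at least 5 testable genes, with the number tested in parentheses. Points are genes, colored where called higher (red) or lower (blue), and black bars are list medians. MHC class II genes have the lowest median (-0.74) and luminal keratins and junction genes the highest (0.066).

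Of the 13 NF-kB target genes, all testable, 1 was called higher and 1 lower. At an unadjusted p under 0.05 (edgeR), 6 were lower and 1 was higher. Ccl20, a chemokine, was called higher (39.4 against 18.7 CPM in PyMT A and 45.8 against 5.71 in PyMT B, log2 fold change 1.92), but 1 member held 88.8% of its UMIs in PyMT B and the adjusted p without the highest cell of each sum was 0.37. Cxcl2, another chemokine, was called lower, and 1 negative cell held 43.8% of its UMIs in PyMT B. Its call held without its highest cell, at a log2 fold change of -1.18 against -1.06 in the main fit (adjusted p = 0.027, edgeR). Without the 5 highest cells it did not hold (-0.87, adjusted p = 0.26). Among the genes with the largest folds, Dcpp2, Ifi27l2a, Wfdc2, Mt2 and Scgb2b27 also drew on few cells: 1 cell held between 21.2% and 100% of the UMIs of the higher class in a library. Of these, Dcpp2 was no longer testable and Mt2 no longer called (adjusted p = 0.95) without the 5 highest cells, while Ifi27l2a, Wfdc2 and Scgb2b27 kept their calls. Krt17, a basal keratin, was called lower although it was higher in members of PyMT A (2.83 against 1.58 CPM), and without its highest cell its adjusted p was 0.80. Cited1 was called at under 6 CPM and lost its call without its highest cell (adjusted p = 0.074). Its log2 fold change was -2.54 there against -2.20 in the main fit, so that cell did not carry the difference. Odc1 and Mgp lost theirs without the 5 highest cells (adjusted p of 0.11 and 0.15), and Wincr1 kept it.

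Cell cycle genes lay in opposite directions in the 2 libraries. None of the 21 was called by edgeR or DESeq2 over both libraries, with 1 at an unadjusted p under 0.05. Within PyMT A, 20 of 21 were higher in members, with a median log2 fold of 1.10, and within PyMT B, 20 of 21 were lower, with a median of -0.36. At the level of cells, 16 of 362 members of PyMT A (4.42%, exact 95% interval 2.55 to 7.08) had UMIs of at least 2 of 8 mitotic genes, against 2 of 362 matched negative cells (0.552%, 0.0670 to 1.98). In PyMT B the counts were 27 of 219 members (12.3%, 8.28 to 17.4) and 30 of 219 matched negative cells (13.7%, 9.44 to 19.0). The intervals in both libraries cover counting error over cells only, and cells are not replicates, so they give no test between the classes. Among all negative cells, not matched for depth, the shares were 0.904% and 8.42%, so in PyMT B the matched negative cells held more such cells than the negative cells as a whole.

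As a description of the spread among the members, they were split at the median of Aldh1a3 per 10000 UMIs in each library, with 181 and 182 cells in PyMT A and 110 in each class of PyMT B, and median depths of 10468 and 10390.5 UMIs and of 21192 and 20991.5. The split uses the value that chose the members, and both classes together are the members in which the genes were called, so it is not independent of those calls. Of the 41 higher genes that held without the 5 highest cells, 33 in PyMT A and 30 in PyMT B had more CPM in the members with more Aldh1a3, against 51.5% and 52.9% of all 9574 genes tested. Adamts1 stood at 56.3 CPM in members under the median and 94.6 in those above it in PyMT A, and at 186 and 268 in PyMT B. Klk10 stood at 1316 and 1994 and at 1498 and 1910, and S100a6 at 2329 and 2772 and at 2963 and 3371. Of the 61 lower genes that held, 51 in PyMT A had less in the members with more Aldh1a3, and 21 in PyMT B did, against 48.4% and 47.0% of all genes tested, so the libraries went apart for the lower genes. Counting all 4 classes, from cells without Aldh1a3 through those below the limits to both classes of members, 24 of the 41 higher genes in PyMT A and 21 in PyMT B increased at each step, and 28 and 16 of the 61 lower genes decreased at each step. The genes were called because members differed from these negative cells, so the choice set part of this order. The share of all genes tested that kept such an order was not computed, so the counts show no graded relation with Aldh1a3. These counts carry no test, as genes are not independent and each library gives 1 value.

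**Figure D5:**
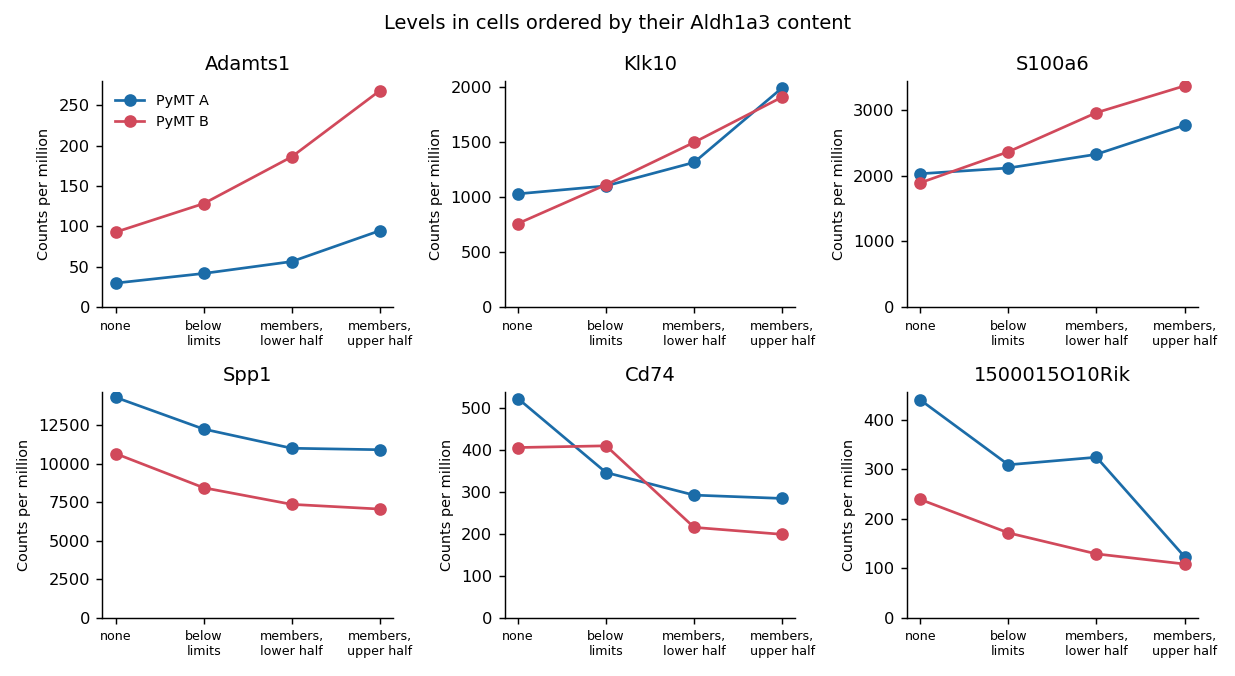
CPM (of all UMIs in the class) of 6 genes in matched cells with no Aldh1a3 UMI, cells below the limits, and members below (lower) and above (upper) the median of Aldh1a3 per 10000, in PyMT A (blue) and PyMT B (red), y axes from 0. Adamts1, Klk10 and S100a6, which are among the 24 and 21 of 41 higher genes that do so, climb from left to right in both libraries, with Adamts1 reaching 94.6 and 268 in the last class, while Spp1, Cd74 and 1500015O10Rik are lower in both classes of members than in cells without Aldh1a3. All 6 genes were called from members against these negative cells, so the choice set the difference between the first class and the members.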

How the data were processed

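Per the labels and the study's methods, the authors sorted tumor cells, prepared 10x Genomics 3′ v2 libraries and counted UMIs with Cell Ranger and STAR against the prebuilt mm10 reference; the submitters' processing notes name Cell Ranger 2.2.0 for PyMT A and 3.0.2 for PyMT B, while the headers of both matrices name 3.0.2. The deposited values are raw counts of UMIs per gene and cell barcode, not normalized. Total UMIs of the cells kept were 17926720 in PyMT A and 37596084 in PyMT B, which limits genes of a few CPM.

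Cells needed 3000 UMIs, 500 genes and under 20% mitochondrial UMIs. Members were matched 1 to 1 with negative cells of the same library whose UMIs differed by at most 10%, UMIs were summed per library and class, and sums were tested with edgeR 4.0.16 (R 4.3.3; TMM, filterByExpr, library as a block, 1 residual degree of freedom, median prior degrees of freedom 21.1). CPM values use the TMM factors (0.977 to 1.01) except in the classes split by Aldh1a3, and standard errors are the log2 fold change over the root of the F statistic. The library pairs the sums because members and negative cells came from the same tumor. On sums simulated for 9441 genes, the test recovered 40% of 100 genes changed 1.5-fold and 69% of 100 changed 2-fold, with 2 false calls in 111. These sums were drawn with the trended dispersion that edgeR itself estimated, and no single cell supplied many UMIs of a gene. The false calls there therefore do not measure those in the real sums. Scrublet (scanpy 1.11.5, expected rate 2%) called 7 of 1849 and 0 of 1794 cells doublets, which is too few to be a working call, so doublets were not removed. Of 118 barcode sequences shared between libraries, 5 were shared by the PyMT libraries, and 7 and 5 members carried a shared sequence.

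The members, gene lists and tests were chosen with earlier results of these data known. Named genes were up to 15 per direction with the largest fold among those called, of 1 direction in both libraries and of at least 50 CPM in the higher class, up to 3 per list and direction by p, and any gene of the luminal progenitor, retinoic acid and surface marker lists. Combined tables of the series and the other libraries were not used for tests. Gene positions are from GENCODE vM21.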

Additional observations from a re-analysis of the deposited data

Results flagged for a closer look

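The BRCA1-null B library, which enters no comparison above, also held cells that met the Aldh1a3 limits: 73 of 1901 (3.84%, exact 95% interval 3.02 to 4.80), above the 0.0482% and 0.103% of the Neu libraries. In this library alone, with 73 depth-matched negative cells (median 14814 and 14815 UMIs) and no replicate, Wfdc18 measured 5626 CPM against 1148, Klk10 288 against 5.44, Krt7 214 against 48.2 and Krt8 3219 against 947. Klk10 had a UMI in 24.7% of the 73 cells and in 8.22% of the negative cells. Cd74 (79.2 against 9.33 CPM), Lcn2 (1840 against 1086) and Spp1 (1404 against 825) were higher in the Aldh1a3-positive cells of BRCA1-null B, whereas they were lower in those of both PyMT libraries. Cd74 had a UMI in 13.7% of the 73 cells against 11.0% of the negative cells, Lcn2 in 95.9% against 91.8% and Spp1 in 87.7% against 89.0%, so few cells held the Cd74 UMIs. The class II gene H2-Ab1 had 2 UMIs against 5, and H2-Aa had 1 in each class. Adamts1 measured 205 against 158 CPM but was found in fewer of the cells (42.5% against 61.6%). Whether any of these differences differs between the tumor types was not tested, and the keratin levels of both classes differed in BRCA1-null B, which was not the case for Krt8 in the PyMT libraries.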

How the results depend on the processing

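The 149 calls depended on the fit. They numbered 20 with DESeq2 (4 higher, 16 lower), 260 with DESeq2's size factors in edgeR (104 and 156), 346 with depth not matched (139 and 207), 31 with each cell thinned to 3000 UMIs (8 and 23), 92 with up to 3 negative cells per member (32 and 60), 272 without shared barcodes (111 and 161), 76 with a mitochondrial limit of 10% (27 and 49) and 257 with at least 3 Aldh1a3 UMIs and 3 per 10000 (92 and 165). Without the pairing by library (no replicate block) 0 genes were called, with 93 at an unadjusted p under 0.05. The other alternatives gave 131 to 214 calls, and leaving out each gene's 1 or 5 highest cells, chosen after seeing the data, gave 105 and 118. The cause of these changes was not tested. Of the called genes, 19 kept their call in all 13 edgeR alternatives with the library term, among them Adamts1, Klk10, Rbp7, Areg, Tagln2, Wfdc18, Saa1, Spp1, Cd74, Lcn2 and 1500015O10Rik.

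Direction was followed over the fits for 77 of the named genes, most of them called in the main fit, and 74 kept it in every fit. Cd14, Ltf and Cebpd, which lay in opposite directions in the 2 libraries, were not among the 77. The 74 are thus no rate for all genes named. Csn1s2a turned to 0.53 with depth not matched, 0.64 thinned and 0.14 with 3 negative cells, Krt8 to -0.068, -0.043 and -0.025, and Krt18 to -0.084, -0.071 and -0.032. Another fit used cells with a UMI of Krt8, Krt18 or Epcam and none of Ptprc, Pecam1, Col1a1 or Col3a1. It kept 354 matched members of PyMT A and 206 of PyMT B. There 76 of the 77 genes kept direction and call, and 1 was no longer called. Ptprc had 0 UMIs in each sum of the main fit, so leukocytes were not addressed. With a library left out no test remains, so only folds were computed: with 1 replicate left out, Csn1s2a ranged from -0.63 to 0.069 and Krt17 from -1.80 to 0.84, in each case positive without replicate B. Thinning to 3000 UMIs, where the limit of 2 UMIs is stricter, moved the share of members to 10.5% and 5.69%. Counting every cell with at least 1 Aldh1a3 UMI moved it to 34.2% and 29.2%. The other alternatives for the shares and for the neighbors moved them by less than the SD between both libraries (5.21 and 7.82 percentage points). Both libraries come from 1 line, so nothing here speaks for other PyMT tumors, and genes of a few CPM could not be resolved.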
